A study of Mus with 2 samples.

Results

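Collagen chains are the subunits of the collagens, the main structural proteins of the extracellular matrix. The set examined here holds 33 mouse genes for chains of the fibrillar, network-forming, beaded, anchoring, fibril-associated, transmembrane and multiplexin types, and its members were picked by gene name and not by a cut on their values, though with earlier results of these data known. Of the 33 genes, 31 had at least 1 probe on the array whose transcript accession matched the gene, out of 20060 genes matched in all, and Col6a3 and Col12a1 had no matched probe here. A gene counted as measured when at least 1 of its probes was well above background on at least 1 array, which held for 21 of the 31 collagen genes and for 13532 genes in all.

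The RNA came from bone marrow derived macrophages (BMDMs) of male C57BL6/J mice, 10 weeks old, grown for 7 d with M-CSF at 10 ng/mL and then held for 24 hr under M2 conditions, that is, with IL-4 at 10 ng/mL, the cytokine that drives this form of polarization. One condition, DMSO, received the solvent and the other received 10 µM GW4064, a synthetic agonist of the farnesoid X receptor (FXR), so that both share the mouse strain, M-CSF and IL-4. Each condition was read on 1 single-colour Agilent array. No condition was repeated, so a spread between cultures was not measured and nothing was tested, and every difference below describes these 2 arrays alone. BMDMs are a culture of adherent marrow cells, and no sorting step before the RNA extraction for the array is described.

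Every collagen chain carries repeats of glycine followed by a pair of other residues, and chains wind around each other into a helix before they are secreted, trimmed and cross-linked. Fibrillar collagens (types I, II, III, V and XI) build the cables of connective tissue, cartilage and bone, and type IV collagens form the sheet of basement membranes. Fibroblasts, smooth muscle cells, osteoblasts and chondrocytes are the classical producers. Macrophages are better known for taking up and breaking down collagen, although they transcribe some chains, type VI among them.

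Signals are the processed spot intensities of the scanner software, in arbitrary units and not scaled between arrays, each followed where given by the software's own error estimate for that spot. A log2 difference is GW4064 minus DMSO after the 75th percentile of each array (1209 for DMSO and 1265 for GW4064) had been set to 0, and 2-fold was the threshold for a called difference. A probe that was well above background on 1 array only gives a bound, written as "at least". A bound holds for this processing alone, and other processing gave smaller differences for some of these genes. Whether a spot is well above background is a mark that the software sets for each spot, not a cut on the signal. The lowest signal well above background was 15.7 with DMSO and 15.1 with GW4064, yet Col11a2, at 18.8 with DMSO, lacked the mark. Below, "in the background" means that no probe of a gene passed this mark of the software. Of the 39200 probes with a usable spot on both arrays, 57.4% passed it with DMSO and 58.5% with GW4064. Among probes printed 10 times on each array, the SD of the log2 difference over the copies had a median of 0.072 at signals of 1000 or more, 0.076 from 200 to 1000, 0.14 from 50 to 200 and 0.31 from 15 to 50, so that a difference read at 1 dim spot is the least certain. Single spots that differed 8-fold or more between the arrays numbered 577 in all. Whether they lie closer together on the slide than randomly placed spots would was not tested. A spot with 2 or more other such spots within 300 µm is said below to lie in a damaged area. The name stands for this count alone, and damage itself was not examined. Such areas held 16.5% of the spots.

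Most of the measured collagen chains were lower on the GW4064 array. Of the 21 genes, 16 were lower and 5 higher, where 48.2% of all measured genes were lower. The median log2 difference of the 21 was -0.77, against 0.0068 over all measured genes. At 1.5-fold, 13 collagen genes were lower, where 5.56% of all genes were, and 4 were higher, where 4.39% were. At 2-fold, 3 were lower, namely Col2a1, Col6a1 and Col5a1, where 2.71% of all genes were, and 3 were higher, namely Col13a1, Col4a5 and Col4a6, where 2.04% were. The lower chains belonged to fibrillar, network, beaded, fibril-associated and multiplexin collagens, and all 3 chains that were 2-fold higher had a spot in a damaged area of the slide.

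**Figure D1:**
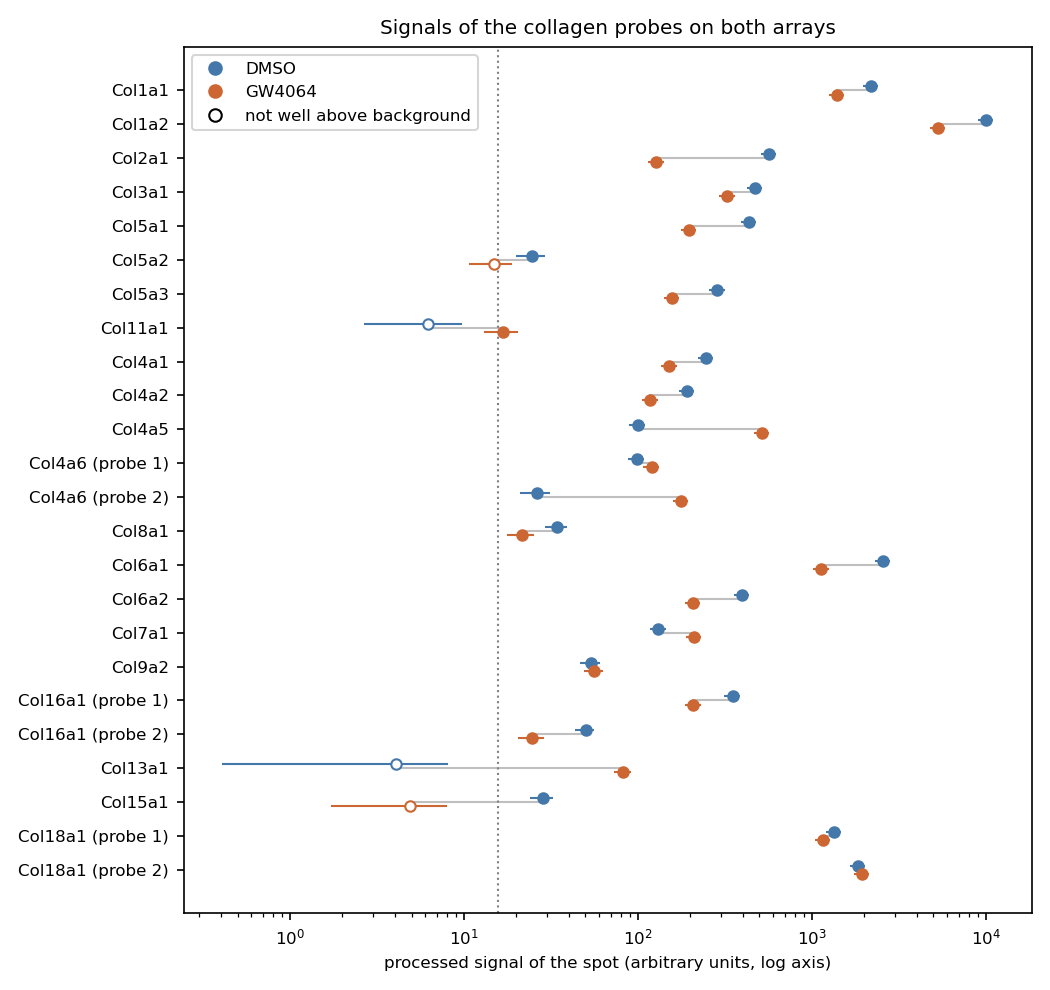
Processed signal of each measured collagen probe (log axis, arbitrary units) on the DMSO array (blue) and the GW4064 array (orange), with bars for the scanner software's error (shortened on the left for Col13a1 with DMSO, to fit the log axis) and open circles where the probe was not well above background. The dotted line marks the lowest signal well above background on the DMSO array (15.7). Most orange points lie to the left of the blue ones, and those of Col4a5, Col13a1 and the second Col4a6 probe lie far to the right.

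The software's error grows with the signal, and it gives the log2 difference of a collagen probe an error of 0.20 to 0.33. Of the 20 collagen probes well above background on both arrays, 13 were lower by more than 2 times this error, where 4.61% of all probes were, and 3 were higher, where 3.95% were. Without the probes that give bounds most chains were still lower. Of the 17 genes measured on both arrays by every probe used, 14 were lower and 3 higher, where 48.8% of all such genes were lower, and their median was also -0.77. Leaving out the damaged areas changed the counts of the higher chains more than those of the lower ones. When those areas were left out, 18 collagen genes stayed measured, of which 15 were lower, 12 of them 1.5-fold or more, and 3 were higher. The count of chains 2-fold higher went from 3 to 0, and that of chains 2-fold lower stayed at 3. Over all genes, those 2-fold higher went from 276 of 13532 to 168 of 11506, and those 2-fold lower from 367 to 202.

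Large differences are more frequent among dim probes, so the members were also read by the signal of their brighter array. Of the 6 collagen genes at 500 or above, 4 were 1.5-fold or more lower, where 1.31% of all genes of that signal were. From 50 to below 500 it was 6 of 11, where 10.1% of genes were, and below 50 it was 3 of 4, where 17% were. The bright members lower by this size were Col1a1, Col1a2, Col2a1 and Col6a1.

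**Figure D2:**
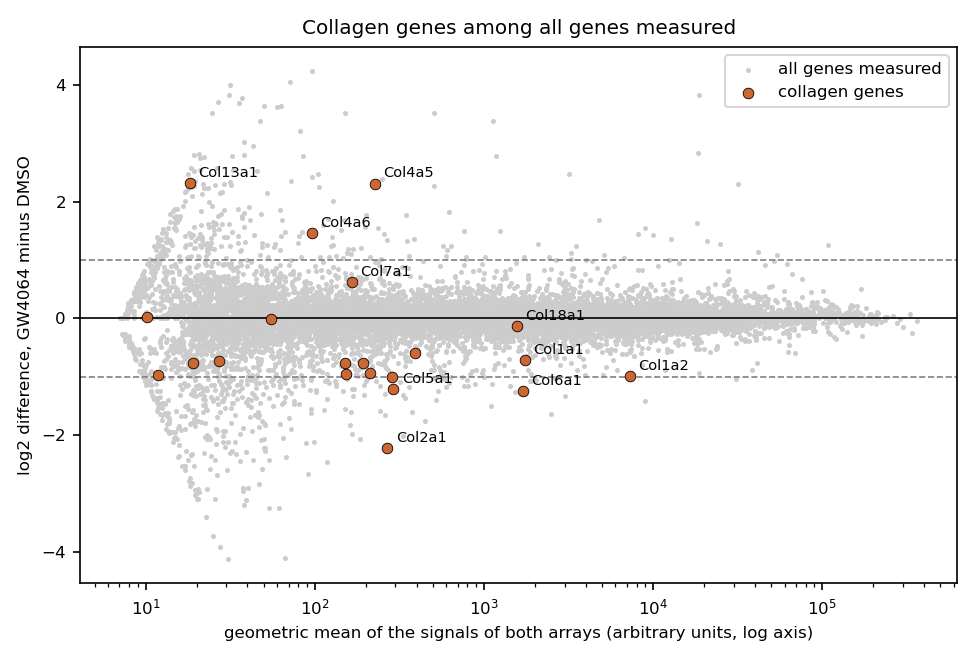
Log2 difference (GW4064 minus DMSO) of every measured gene (grey) and of the 21 collagen genes (orange) against the geometric mean of both signals (log axis). The dashed lines mark 2-fold. The grey cloud narrows as the signal grows, and Col1a1, Col1a2 and Col6a1 lie below it on the right, while most other collagen genes lie between 0 and -1.3.

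Among the fibrillar collagens, 7 of 8 measured chains were lower, 2 of them 2-fold or more, with a median of -0.85. Of all measured genes, 48.2% were lower and 2.71% were 2-fold or more lower. Type I collagen, the chief protein of bone, tendon and scar, is built of the products of Col1a1 and Col1a2. Col1a2 read 10058 ± 1006 with DMSO and 5296 ± 530 with GW4064, a log2 difference of -0.99 or 1.99-fold lower. Col1a1 read 2182 ± 218 with DMSO and 1390 ± 139 with GW4064, a log2 difference of -0.72 or 1.64-fold lower. The 2 partners were lower by sizes that differ by little more than the error of either. The spot of Col1a1 had 3 other 8-fold spots within 300 µm and that of Col1a2 had 0. The other spots in the 5 rows and columns around Col1a2 had a median log2 difference of -0.21, the lowest such value around a measured collagen probe, and around Col1a1 it was -0.081.

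Col2a1, the chain of type II collagen and the main collagen of cartilage, differed most of all the chains that were lower. It read 567 ± 57 with DMSO and 127 ± 13 with GW4064, a log2 difference of -2.22 or 4.66-fold lower, and was the only member past 4-fold in that direction. It was read at 1 spot, with 0 other 8-fold spots within 300 µm and a median of -0.18 in the spots around it. Other genes that define chondrocytes were not detected beside it: of 8 chondrocyte markers, only Comp was measured (180 and 171, GW4064 minus DMSO of -0.14 on the log2 scale), while Sox9, Sox5, Sox6, Acan, Matn1, Matn3 and Hapln1 stayed in the background of both arrays. Of the other chains of cartilage fibrils, Col11a2 stayed in the background of both arrays, and Col11a1 passed the background mark on the GW4064 array alone, with a signal of 16.8 ± 3.7 that puts it at least 1.02-fold higher.

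Col3a1, the chain of the reticular fibres that accompany type I collagen, read 468 ± 47 with DMSO and 327 ± 33 with GW4064, a log2 difference of -0.58. Type V collagen lies at the core of type I fibrils and governs their diameter, and all of its chains were lower. Col5a1 read 434 ± 44 with DMSO and 196 ± 20 with GW4064, a log2 difference of -1.21 or 2.31-fold lower. Col5a3 read 287 ± 29 and 157 ± 16, a log2 difference of -0.93. Col5a2 was dim, at 24.6 ± 4.8 with DMSO and not well above background with GW4064, and was at least 1.70-fold lower. None of these 4 spots had another 8-fold spot within 300 µm.

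The network collagens split between lower and higher chains. Col4a1 and Col4a2, which together make the type IV collagen of most basement membranes, were lower by the same amount. Col4a1 was the only collagen probe printed 10 times, so it is the one with a measured spot-to-spot error. Its copies read from 225 to 271 with DMSO, with a median of 248, and from 140 to 163 with GW4064, with a median of 154. All 10 copies were lower on the GW4064 array. For how many of the other probes printed 10 times the copies separate in this way was not counted. The mean log2 difference over the copies was -0.77 ± 0.076 (SD, n = 10 spots of 1 array pair). Copies repeat the reading of 1 RNA sample, so this SD holds no difference between cultures. Col4a2, read at 1 spot, was 191 ± 19 with DMSO and 118 ± 12 with GW4064, a log2 difference of -0.77.

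**Figure D3:**
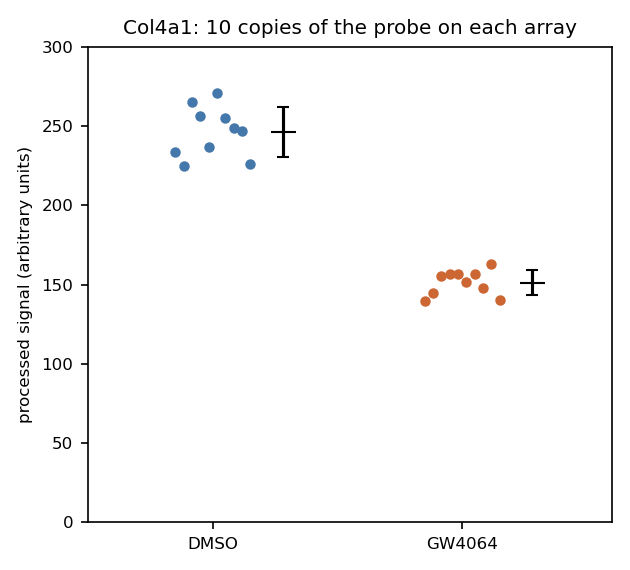
Processed signal (arbitrary units) of the 10 copies of the Col4a1 probe on the DMSO array (blue) and the GW4064 array (orange), with the mean and SD over the copies in black. The copies lie between 225 and 271 with DMSO and between 140 and 163 with GW4064.

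Col4a5 and Col4a6 code for chains of the specialised basement membranes of kidney, eye and smooth muscle. Col4a5 read 100.01 ± 10.6 with DMSO and 518 ± 52 with GW4064, a log2 difference of 2.31 or 4.95-fold higher. Its only spot lay in a damaged area, with 6 other 8-fold spots within 300 µm. The 2 probes for Col4a6 disagreed. The first read 98.3 ± 10.5 and 119.98 ± 12.5, a log2 difference of 0.22 with a software error of 0.21, and had 0 such spots around it. The second read 26.3 ± 5.2 and 177 ± 18, a log2 difference of 2.69, and lay in a damaged area with 3 such spots. The mean over both was 1.45, and without the damaged areas Col4a6 was left with 0.22 and Col4a5 with no value. The part that damage has in these values was not tested. Col4a3 and Col4a4, the partners of the Col4a5 chain in kidney basement membrane, stayed in the background of both arrays.

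Of the short-chain network collagens, which surround blood vessels and growing cartilage, only Col8a1 was measured. It read 34.2 ± 4.8 with DMSO and 21.5 ± 3.9 with GW4064, a log2 difference of -0.73 with a software error of 0.33. Col8a2 and Col10a1, a marker of hypertrophic cartilage, stayed in the background of both arrays.

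Type VI collagen forms beaded filaments around cells, and both measured chains were lower. Col6a1 read 2573 ± 257 with DMSO and 1136 ± 114 with GW4064, a log2 difference of -1.25 or 2.37-fold lower, the largest difference among the chains that were lower after Col2a1. Col6a2 read 395 ± 40 and 207 ± 21, a log2 difference of -0.998, just short of 2-fold. Both spots had 0 other 8-fold spots within 300 µm.

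Col7a1, the chain of the fibrils that anchor epidermis to dermis, was higher, at a spot with 0 other 8-fold spots within 300 µm, and was the only member outside the damaged areas to be higher by more than 2 times its software error. It read 131 ± 14 with DMSO and 210 ± 21 with GW4064, a log2 difference of 0.62 with a software error of 0.21. It stayed between 0.41 and 0.64 over the 13 settings tried.

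The fibril-associated collagens coat the surface of fibrils, and most were not measured. Col16a1 had 3 probes, of which 2 were measured, and both were lower, from 350 ± 35 to 208 ± 21 (a log2 difference of -0.82) and from 50.02 ± 6.2 to 24.7 ± 4.2 (-1.08). Its remaining probe stayed in the background. Col9a2, a partner of type II collagen, was close to equal on both arrays at 53.7 ± 7.1 and 56.1 ± 7.1, a log2 difference of -0.0039 whose sign turned under 3 of the other settings. Col9a1, Col9a3, Col14a1 and Col19a1 stayed in the background of both arrays.

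Col13a1, a transmembrane collagen of cell contacts and nerve-muscle junctions, was not well above background with DMSO (4.08 ± 4.06) and read 82.3 ± 9.1 with GW4064, at least 4.99-fold higher. Its only spot lay in a damaged area, with 4 other 8-fold spots within 300 µm, so that it has no value once those areas are left out. Col17a1, a transmembrane collagen of skin, stayed in the background of both arrays. Of the multiplexins, whose C-terminal fragments include endostatin, Col15a1 had 1 of 3 probes measured, at 28.4 ± 4.3 with DMSO and not well above background with GW4064, at least 1.96-fold lower. The 2 probes for Col18a1 read 1336 ± 134 and 1153 ± 115 (a log2 difference of -0.28) and 1848 ± 185 and 1939 ± 194 (0.0044), and the second lay in a damaged area with 8 other 8-fold spots. Col18a1 was the bright member that differed least between the arrays.

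**Figure D4:**
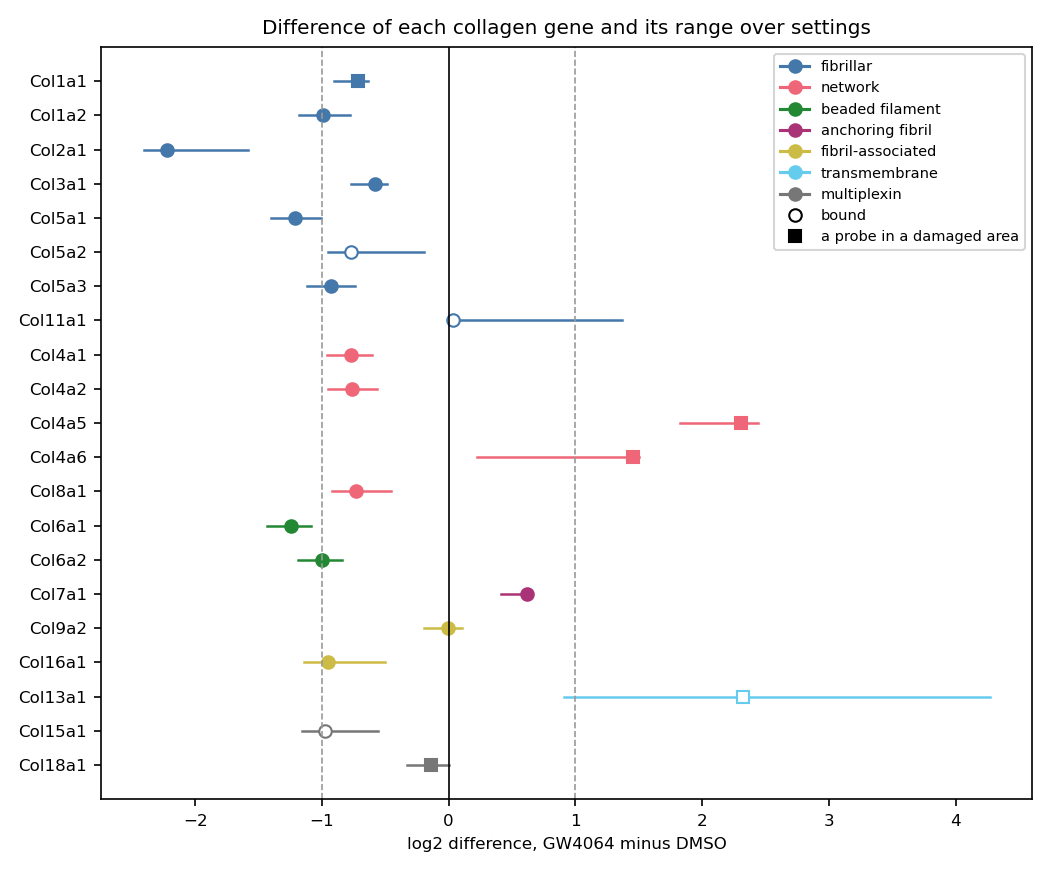
Log2 difference (GW4064 minus DMSO) of each measured collagen gene, coloured by collagen type, with a line from the lowest to the highest value over 13 settings. Open symbols are bounds, squares have a probe in a damaged area, and dashed lines mark 2-fold. The lines of Col1a1, Col1a2, Col2a1, Col3a1, Col5a1, Col4a1, Col4a2, Col6a1 and Col6a2 stay below 0, and the widest line is that of Col13a1.

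Across 13 settings of scaling, background correction and filtering, 14 of the 16 lower genes were lower in each setting that measured them, and Col9a2 and Col18a1 were the exceptions. Col1a2 lay between -1.18 and -0.78 and Col6a1 between -1.43 and -1.08. Col2a1 lay between -2.41 and -1.58, the latter with the normexp background correction, under which it was no longer 4-fold lower. Centring on the spike-in control RNA put the median of all genes at -0.18. It moves each value by the same constant, except a bound that reaches 0, as that of Col11a1 did. The other collagen values relative to that median were nearly as before.

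Some members lie next to each other in the genome, with no other protein-coding gene between their starts in the RefSeq annotation of GRCm38.p6, and their values can be set side by side. Col4a1 and Col4a2, neighbours, were both at -0.77. Col6a1 and Col6a2 were at -1.25 and -0.998, and Col3a1 and Col5a2 were at -0.58 and, as a bound, -0.77. Col4a5 and Col4a6 were at 2.31 and 1.45, with the damaged areas named above. The pairs Col4a3 with Col4a4 and Col9a1 with Col19a1 were not measured.

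Chains outside the set of 33 mostly stayed in the background. Of 11 such genes, 3 were measured and all were lower. Col6a6 read 96.4 with DMSO and was not well above background with GW4064, at least 6.67-fold lower, Col24a1 read 50.4 and 21.6 (-1.29 on the log2 scale), and Col20a1 had over 2 probes a mean log2 difference of -0.055. All 3 had a spot in a damaged area.

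The genes that act on collagen did not move as a single group. Among 16 genes for the enzymes and chaperones that modify and fold the chains in the endoplasmic reticulum, 15 were measured, 6 lower and 9 higher, with a median of 0.12. Colgalt1, which adds galactose to collagen, read 18710 and 22345 (a log2 difference of 0.19) in a damaged area. P4hb, a disulfide isomerase that is also a subunit of prolyl hydroxylase, read 15702 and 19334 (0.23), and the prolyl isomerase Ppib read 22046 and 27546 (0.26). Serpinh1, also called HSP47, is a chaperone devoted to collagen, and it read 619 and 391, a log2 difference of -0.73. Fkbp10, another collagen chaperone, read 1280 and 619, a log2 difference of -1.11, the only gene of this list 2-fold lower. P3h2, a prolyl 3-hydroxylase, was at least 4.93-fold higher, at a spot with 15 other 8-fold spots within 300 µm.

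Of 12 genes for export and trimming of procollagen, 11 were measured, 7 lower and 4 higher, with a median of -0.063 and none past 2-fold. Mia3 and Sec24d, of the export machinery, were at -0.024 and -0.063, with mean signals of 3780 and 4100 for Mia3 and signals of 1853 and 1857 for Sec24d. The largest differences among the lower ones were in genes for the trimming of procollagen ends. Adamts2, the protease for the N-terminal end, read 1025 and 537 (a log2 difference of -0.999). Pcolce, which enhances cleavage of the C-terminal end, read 2215 and 1481 (-0.65). Bmp1, the C-proteinase itself, had a mean of -0.58 over 3 probes, and Pcolce2, dim and in a damaged area, was at least 1.68-fold lower. Adamts14, a relative of Adamts2, was at 0.40.

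The cross-linking enzymes were lower throughout. All 5 genes of the lysyl oxidase family were measured and lower, where 48.2% of all measured genes were, with a median of -0.96. Lox read 282 and 96.3 as the mean of its probes, a log2 difference of -1.60. Loxl1 was at -0.98, Loxl2 at -0.74 and Loxl3, which read 315 and 260, at -0.34, and Loxl4 was at least 1.94-fold lower. Loxl1, Loxl2 and Loxl4 had a spot in a damaged area.

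Of 10 collagen receptors, 8 were measured and all were lower, with a median of -1.09, where 48.2% of all measured genes were lower. Lair1 and Itgb1 were not lower under every setting, with highest log2 differences of 0.072 and 0.066. By 2-fold or more 4 receptors were lower, where 2.71% of all measured genes were. All 4 had signals below 500. Of all genes, 6.03% with signals from 50 to below 500 and 7.21% with signals below 50 were 2-fold lower. Itga11, the integrin subunit with which fibroblasts bind fibrillar collagen, read 200.5 and 48.3, a log2 difference of -2.12. Mrc2, an uptake receptor for collagen on mesenchymal cells, read 67.5 and 28.6 (-1.30), Itga2 was at least 2.75-fold lower and Ddr1 at least 2.37-fold lower. The receptors known from leukocytes differed less, with Lair1 at -0.035, the shared integrin subunit Itgb1, which read 4006 and 4033, at -0.048 and the macrophage mannose receptor Mrc1, which read 36423 and 30036, at -0.34.

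Among 8 genes for collagen breakdown, all were measured, 5 lower and 3 higher. Mmp9, a gelatinase, read 437 and 3152, a log2 difference of 2.78, and Mmp2, the other gelatinase, read 249 and 112, a log2 difference of -1.21. The spots of both lay in damaged areas, with 5 other 8-fold spots within 300 µm. Mmp13 (0.021) and Mmp8 (0.020) were near 0, and Ctsk, which read 18548 and 17682, was at -0.13. The inhibitors Timp1, which read 6876 and 4052, and Timp2, which read 45581 and 36508, were at -0.83 and -0.32.

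**Figure D5:**
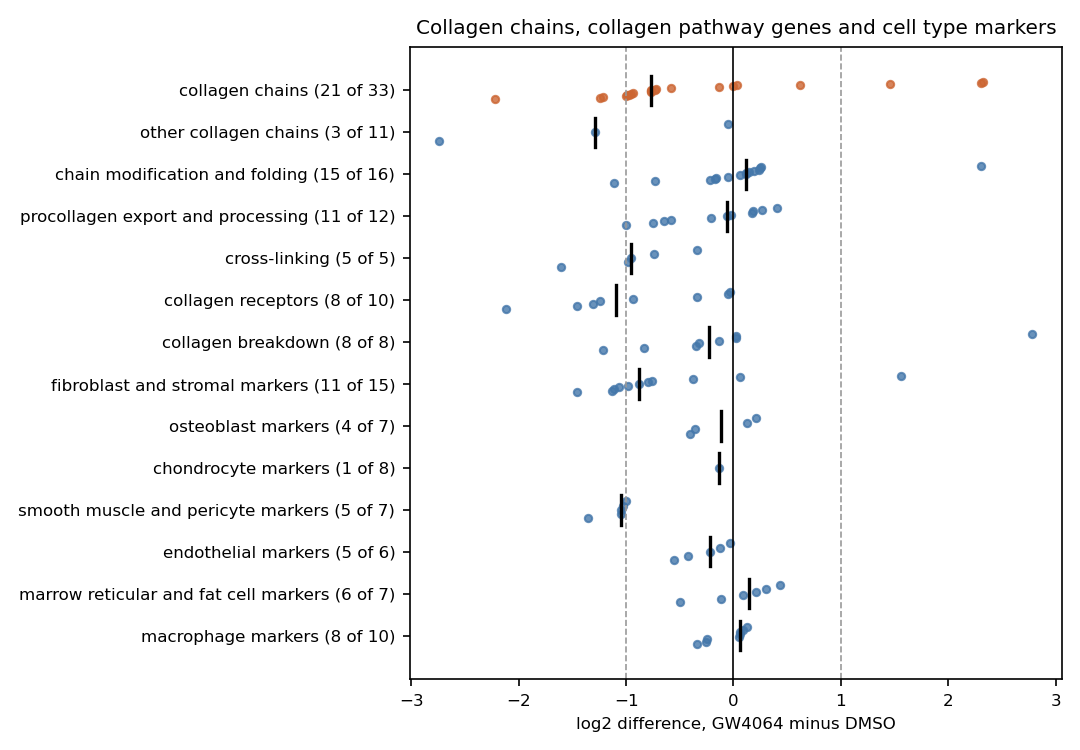
Log2 difference (GW4064 minus DMSO) of each measured gene of the collagen chains (orange), of 6 lists of collagen pathway genes and of 7 lists of cell type markers (blue), with black bars for the medians and the number measured of the number listed. The medians of cross-linking, receptor, fibroblast and smooth muscle lists lie near -1, as that of the collagen chains does, while those of folding enzymes and macrophage markers lie near 0.

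Markers of fibroblasts and of smooth muscle were mostly lower together with the collagen chains, and their part in the result was not tested. Of 15 fibroblast and stromal markers, 11 were measured, 9 lower and 2 higher, with a median of -0.88, where 48.2% of all measured genes were lower. Loxl1, given above among the cross-linking enzymes, is also in this list. The summed signal was 14571 with DMSO and 8398 with GW4064, most of it from Sparc. Sparc, a collagen-binding matrix protein, read 11401 and 6432 as the mean of its probes (a log2 difference of -0.80), Dcn, a proteoglycan of fibrils, read 1191 and 676 (-0.88), Postn was at -1.11, Bgn at -1.13 and Fbn1 at -1.07. Prrx1, a transcription factor of mesenchymal cells, was at least 2.74-fold lower. Lum, Fbln1, Twist1 and Tcf21 stayed in the background of both arrays, Pdgfra was near equal (31.0 and 34.6, a log2 difference of 0.065), and Fap, a protease of activated fibroblasts, was higher, at 112 and 347 (1.56).

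Of 7 markers of smooth muscle and pericytes, 5 were measured and all were 2-fold or more lower, where 2.71% of all measured genes were. Of all genes, 0.41% at signals of 500 or above, 6.03% from 50 to below 500 and 7.21% below 50 were 2-fold lower. Each of the 5 markers fell short of 2-fold under at least 1 of the 13 settings. At their highest, Acta2 and Tagln were at -0.96, Cspg4 at -0.71, Cnn1 at -0.60 and Notch3 at -0.21. The summed signal of the 5 was 6759 with DMSO and 3444 with GW4064. Acta2 read 2860 and 1447 (a log2 difference of -1.05), Tagln 3652 and 1878 (-1.02) and Cnn1 69.9 and 28.6 (-1.36), and Cspg4 and Notch3 were at -1.05 and -1.002. The spots of Acta2, Cnn1 and Cspg4 lay in damaged areas, while those of Tagln and Notch3 did not. Myh11, the defining myosin of mature smooth muscle, and Rgs5 stayed in the background of both arrays. On bulk RNA, fewer cells of a type and less RNA of these genes per cell cannot be told apart.

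The other marker lists lay nearer to 0. Of 10 macrophage markers, 8 were measured, 3 lower and 5 higher, with a median of 0.057 and none past 2-fold, and the summed signal was 190443 with DMSO and 179820 with GW4064. Csf1r, the M-CSF receptor, read 63329 and 59992 as the mean of its probes (a log2 difference of -0.24) and Adgre1, a surface receptor of mouse macrophages, 45433 and 39729 (-0.25), each with a spot in a damaged area. Cd163 stayed in the background of both arrays, and Cd68 had no matched probe. Of 7 osteoblast markers 4 were measured, all with signals under 100, with a median of -0.11, among them Runx2 (30.9 and 24.5). The list for endothelium had 5 of 6 genes measured, all lower, with a median of -0.22, where 48.2% of all measured genes were lower. Among them were Vwf (16904 and 16204, a log2 difference of -0.13) and Kdr (773 and 818, -0.033). Kdr was not lower under every setting, and its highest log2 difference was 0.038. The list for marrow reticular and fat cells had 6 of 7 measured, with a median of 0.15, among them Fabp4 (19039 and 21136, 0.085) and Lepr (345 and 255, -0.50).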

How the data were processed

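RNA of 2 samples, DMSO and GW4064, was measured on 1 Agilent 44K single-colour array each, both on the same slide, so that no batch could be tested. The authors deposited scanner files whose spot intensity is background-subtracted and spatially detrended by Feature Extraction 10.7.1.1, with no scaling between arrays, and a log2 table of both arrays. The table's column difference equalled that from the intensities within 0.001 for 39200 of 39200 probes, apart from a constant of 0.0022, while the baseline on which it centred each probe stays unknown (column medians 0.035 and -0.051).

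From the intensities, log2 of the processed signal minus each array's 75th percentile was taken. Spots marked non-uniform or population outlier were left out and the spots of a probe averaged, and a gene was the mean of its measured probes. Where a probe did not pass on 1 array, its value there was set to the lowest that passed, unless its own was higher. Symbols came from unversioned RefSeq accessions of GRCm38.p6 (26445 probes matched). The array design names mm9, so no coordinates are given. Precision is limited by the number of arrays.

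The members and gene lists were chosen with earlier results of these data known. Named were the measured members and, of each list, the genes 2-fold different and the 2 brightest. Other list genes were named after their values were seen, and 1 list gene is not reported here by name. Alternatives covered scaling, background correction, filters, thresholds and damaged areas. The calculation was tested on simulated data. The tools were R 4.3.3 with limma 3.58.1, and Python 3.11.15 with matplotlib 3.10.9, scipy 1.17.1, statsmodels 0.14.6, pandas 2.3.3 and numpy 2.4.6. A planned description of the protein sequences was not made.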

Additional observations from a re-analysis of the deposited data

How the results depend on the processing

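No paired analysis was possible because there is 1 array for each condition, and no replicate could be left out. The count of collagen genes 2-fold or more lower (3) became 5 with each array centred on its median, with a loess (span 0.3) and when each spot was centred on the spots around it, the last an alternative chosen after seeing the data. The count became 8 when centred on the spike-in probes, where the median of all genes was -0.18 and 518 of all genes were 2-fold lower. It was 13 at 1.5-fold, where 5.56% of all genes were lower by that size, and 1 at 4-fold. Col1a2 and Col6a2, close to the threshold, were those added by the median and the loess, and Col6a2 and Col15a1 by the spots around each spot. The count 2-fold or more higher was 3, where 276 of all genes were. It was 1 with normexp (offset 50), where 72 of all genes were. With no filter on dim probes it was 5 of 31, where 698 of 20060 genes were. Without the damaged areas it was 0 of 18, where 168 of 11506 genes were. The median log2 difference (-0.77) was -0.95 with the spike-in probes, -0.50 with normexp, which draws dim signals together, and -0.39 with no filter on dim probes, which adds 10 genes not well above background. Of 245 gene values under 12 alternatives, 4 changed sign, 3 for Col9a2 and 1 for Col18a1, all from differences under 2-fold. Of the chains called higher, Col4a6 dropped below 2-fold under 3 alternatives and Col13a1 under normexp (0.91). Dim probes, with signals under 50, limit Col5a2, Col8a1, Col11a1 and Col15a1.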
